A study of Mus musculus with 22 samples.

Results

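The regions described here are H3K27ac peaks of mouse liver that lie at promoters. A region was included if it was a peak of the union H3K27ac table, was shorter than 10000 bp and overlapped by at least 1 base a peak of the H3K4me3 list made from chow livers. Of 11235 union H3K27ac peaks, 6129 met this rule (54.6%), and they are called promoter-type peaks below. The rule used peak positions and no fold change, but the H3K27ac peaks had been called per diet from the same reads as the counts, so the choice was not wholly apart from the diet contrast. The livers came from wild type C57BL/6J mice killed at 24 weeks of age after a night without food, which either ate a high-fat diet from 8 weeks of age for 16 weeks or stayed on chow throughout. H3K27ac and H3K4me1 were each measured by chromatin immunoprecipitation sequencing (ChIP-seq) in 3 high-fat-diet and 3 chow libraries, and mRNA in 3 and 3. H3K4me3 was measured in 2 chow libraries whose reads were pooled for peak calling, so a promoter marked by H3K4me3 on the high-fat diet alone could not enter the set. Whole pulverised liver was used, and in such bulk samples a change in the number of cells of a type cannot be told apart from a change of signal per cell.

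Promoters of active genes carry trimethylated lysine 4 of histone H3 (H3K4me3), which is laid down around the transcription start, most broadly over CpG-rich promoters. Acetylated lysine 27 of the same histone (H3K27ac) marks promoters and enhancers in use, and monomethylated lysine 4 (H3K4me1) is strongest at enhancers and on the flanks of promoters. Acetylation turns over quickly through opposing acetyltransferases and deacetylases, and its maps are widely used to find the regulatory elements in use in liver.

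The positions of the peaks refer to the mm9 build, for which no genome sequence was used here, so their own bases are not shown. The deposited promoter table of the same H3K27ac libraries names genes, and the bases before the annotated start could be read for those genes from RefSeq on the GRCm38.p6 build. Shown are the 250 bases upstream of the start on the gene's own strand, for 2 promoters whose H3K27ac rose on the high-fat diet (Oas3 and Ttc39a) and 2 whose H3K27ac fell (Dact2 and Gulp1). Capitals mark CG dinucleotides, the letters that set CpG-rich promoters apart from CpG-poor ones. Oas3 encodes an oligoadenylate synthetase induced by interferon, Dact2 a modulator of Wnt and TGF-beta signalling, and Gulp1 an adaptor for the uptake of dying cells.
Oas3: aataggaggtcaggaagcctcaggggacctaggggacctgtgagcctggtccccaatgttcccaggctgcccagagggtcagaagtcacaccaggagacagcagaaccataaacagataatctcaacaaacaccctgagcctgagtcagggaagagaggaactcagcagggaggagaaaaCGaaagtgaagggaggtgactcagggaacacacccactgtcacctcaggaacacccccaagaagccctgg
Ttc39a: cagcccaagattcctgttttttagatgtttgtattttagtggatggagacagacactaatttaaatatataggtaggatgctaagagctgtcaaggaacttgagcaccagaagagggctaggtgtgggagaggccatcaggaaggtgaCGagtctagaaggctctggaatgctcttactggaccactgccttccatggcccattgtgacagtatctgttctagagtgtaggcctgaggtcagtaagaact
Dact2: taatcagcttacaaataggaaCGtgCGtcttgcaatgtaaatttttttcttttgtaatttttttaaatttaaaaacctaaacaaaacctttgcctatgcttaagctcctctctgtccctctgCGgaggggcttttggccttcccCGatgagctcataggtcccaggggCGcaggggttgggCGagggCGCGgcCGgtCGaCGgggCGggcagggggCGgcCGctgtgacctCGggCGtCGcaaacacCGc
Gulp1: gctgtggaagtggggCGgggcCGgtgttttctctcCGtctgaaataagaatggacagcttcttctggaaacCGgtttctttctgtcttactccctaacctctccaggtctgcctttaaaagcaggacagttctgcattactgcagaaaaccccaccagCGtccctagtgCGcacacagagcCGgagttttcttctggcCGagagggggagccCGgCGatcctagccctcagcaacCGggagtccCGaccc
The Oas3 stretch (chr5:120777660-120777909, minus strand) and the Ttc39a stretch (chr4:109415397-109415646, plus strand) hold 1 CG each, and 91.1% of 22862 promoters with a single listed start hold at least as many. The Dact2 stretch (chr17:14203832-14204081, minus strand) holds 18 and the Gulp1 stretch (chr1:44551421-44551670, plus strand) holds 12, counts reached by 21.2% and 33.1% of those promoters. Both of these hold the letters GGGCGG on one of the strands, as do 32.4% of the promoters. The Oas3 stretch holds GAAAACGAAA, in which 2 copies of GAAA stand 2 bases apart, the core letters of the interferon-stimulated response element, and 3.11% of the promoters hold such a pair on one of the strands. These matches are descriptions of letters and were looked for after the H3K27ac values were known. The promoters shown were picked from those that passed, with their values in view. Whether promoters that rose and promoters that fell differ in CG was not tested.

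Counts in the 11235 H3K27ac peaks summed to between 2037101 and 5772962 per library, and counts in the 16834 H3K4me1 peaks to between 5487592 and 7380206. The lowest H3K27ac total belonged to high-fat-diet replicate 1, and this library also stood apart from the others in its profile. Over the promoter-type peaks its log2 levels correlated with those of the other H3K27ac libraries at no more than 0.958, whereas high-fat-diet replicates 2 and 3 correlated at 0.978 and the chow pairs at 0.968 to 0.977. Pairs of 1 high-fat-diet and 1 chow library correlated at 0.940 to 0.978, so these correlations did not set the diets apart. Results in which high-fat-diet replicate 1 stood out are therefore also given without it, singly or as a range. Levels are counts per 1000000 counts of the table (CPM), scaled by TMM factors, which correct for composition. The labels do not say that each replicate is a separate animal, so p-values measure only the spread between these libraries, which may be technical.

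Promoter-type peaks were narrow and dense in H3K27ac. Their median width was 3069 bp (25th to 75th percentile 2241 to 4573 bp), against 4070.5 bp for the 4362 H3K27ac peaks shorter than 10000 bp that touched no H3K4me3 peak. Per kilobase they held a median of 21.9 CPM of H3K27ac, against 14.9 CPM in those other short peaks. They made up 43.2% of all bases under H3K27ac peaks. Between replicates of one diet their level varied with a median coefficient of variation of 7.32%, and that of the short peaks without H3K4me3 varied by 8.90%. These sets held medians of 269.7 and 230.6 counts per region, and the part of counts in this variation was not tested. On chromosome X, 90 of 99 H3K27ac peaks were promoter-type (90.9%), whereas on the autosomes the share ran between 49.0% on chromosome 6 and 59.5% on chromosome 2. At the width limit, the 61 peaks with H3K4me3 up to 500 bp narrower than the limit held a median of 19.8 CPM per kilobase and the 49 up to 500 bp wider held 20.9, and at the overlap limit 7 promoter-type peaks shared fewer than 100 bases with H3K4me3.

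The H3K4me3 peaks that promoter-type peaks touched were the stronger part of that list. Of 13065 chow H3K4me3 peaks, 6200 were touched (47.5%), with a median of 1580 tags and a 35.3-fold enrichment over local background, against 908 tags and 22.7-fold for the rest. The fold enrichments are the authors' own values for each peak. A single H3K4me3 peak lay under 6021 of the 6129 regions, 2 lay under 107 and 3 under 1. H3K4me3 covered a median of 74.1% of a region's width, and the summits of both marks lay close together, with a median distance of 169 bp over the 5126 regions with a chow H3K27ac summit. Across the 6129 regions, H3K27ac per kilobase in chow and H3K4me3 tags per kilobase had a Spearman correlation of 0.633, a description over regions that share the same libraries.

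The marks differed in how far they reached from the H3K4me3 summit. The chow H3K4me3 peak covered 94.9% of regions at 500 bp from its summit, 54.7% at 1000 bp and 10.02% at 2000 bp, averaged over both sides. Chow H3K27ac peaks reached farther, covering 83.3% of regions at the summit, 61.1% at 1000 bp and 27.1% at 2000 bp. These shares are limited by the 1003 regions (16.4%) from the high-fat-diet H3K27ac list alone, which touched no chow H3K27ac peak. Cover by H3K4me3 at its own summit is 100% by construction. Chow H3K4me1 peaks covered 36.6% at the summit, 32.4% at 1000 bp and 20.8% at 2000 bp. In the 1532 regions at the widest H3K4me3 peaks (over 2747 bp), the H3K4me1 profile was flat across the summit, with 41.6% at the summit, 39.8% at 500 bp and 42.4% at 1000 bp. Regions at wide H3K4me3 peaks also carried an H3K4me1 union peak more often, 63.8% of them against 39.7% of the 1533 regions at the narrowest H3K4me3 peaks (up to 1762 bp), while median H3K27ac per kilobase was 22.5 and 20.4 CPM in these sets. The regions themselves were wider at the widest H3K4me3 peaks, with a median of 4701 bp against 2049 bp, and the part of this width in the H3K4me1 overlap was not tested.

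**Figure D1:**
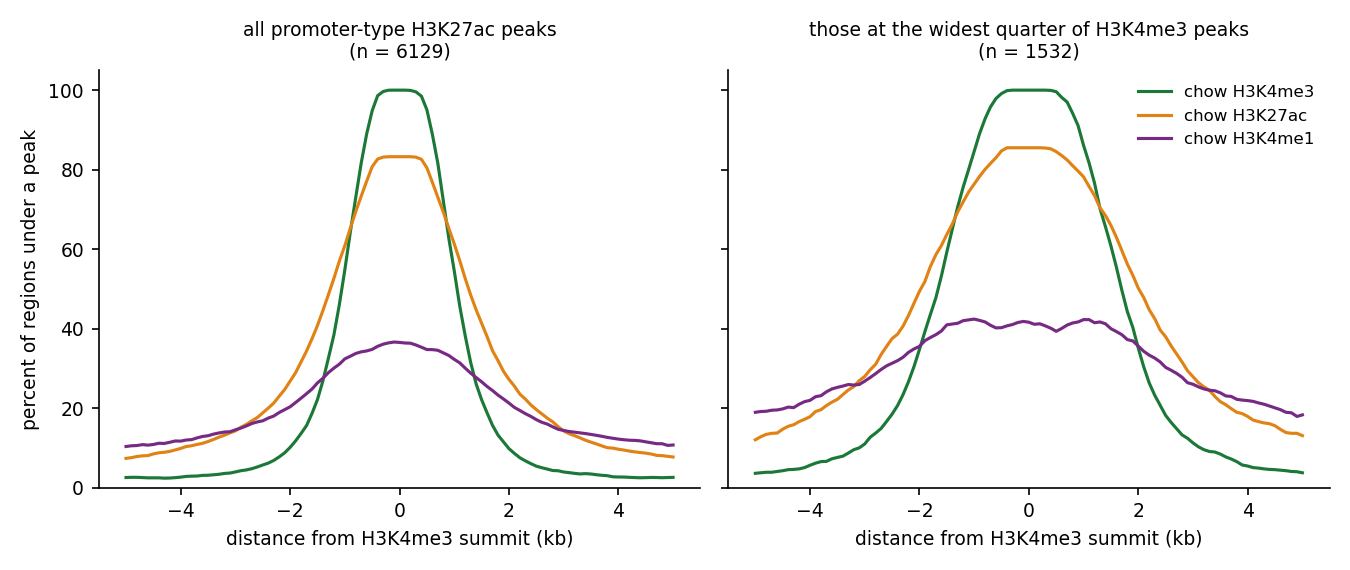
Percent of regions lying under a chow peak of each mark (vertical axis) at each distance from the H3K4me3 summit (horizontal axis, kilobases), for all 6129 promoter-type peaks and for the 1532 at the widest H3K4me3 peaks. H3K4me3 falls away first and H3K27ac next. At the summit H3K4me1 covers fewer regions than the other marks, though over all regions its own cover is highest there (36.6%). H3K4me1 is the broadest mark, with a plateau at the wide peaks between 39.8% and 42.4% out to 1000 bp. Regions that touched no chow H3K27ac peak are included.

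The first comparison asked which promoter-type peaks changed with diet, and few did. H3K27ac passed the threshold at 38 of the 6129 regions, of which 24 gained and 14 lost signal under high-fat feeding, which is 0.620% of them (edgeR's quasi-likelihood F test with Benjamini-Hochberg adjustment over all union peaks, threshold 0.05, n = 3 per diet). The background was 1.91% of all union peaks, 1.2% higher and 0.712% lower, and in the short peaks without H3K4me3 it was 3.28%. At an unadjusted p under 0.05 there were 526 promoter-type peaks (8.58%), against 14.0% of all union peaks. The diets' libraries did not overlap at 15.3% of them (482 higher, 458 lower), against 19.3% of all union peaks. The median log2 fold change of promoter-type peaks was −0.0024 and the standard deviation across them was 0.13, against 0.19 in the short peaks without H3K4me3, and 15 of them but 98 of all union peaks (0.872%) went past 0.5 either way. The median standard error was 0.098 at promoter-type peaks and 0.11 at the short peaks without H3K4me3, and whether the share past the threshold differs between the classes was not tested.

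The number of regions past the threshold depended on the libraries in the fit. It was 41 without high-fat-diet replicate 1, 120 without high-fat-diet replicate 2 (83 higher, 37 lower) and 9 without high-fat-diet replicate 3. It was 7, 13 and 6 without chow replicates 1, 2 and 3. In each of these fits, and with each other test or scaling tried, the share was below that of all other H3K27ac peaks, at 0.098% to 1.96% of promoter-type peaks against 0.744% to 6.31% of the others. Scaled to total counts, 16 were higher and 16 lower, in place of 24 and 14. All 38 kept their direction in every one of these fits, and DESeq2 called 23 of them. The fits share libraries with the one that chose these regions, so the kept direction adds no support.

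**Figure D2:**
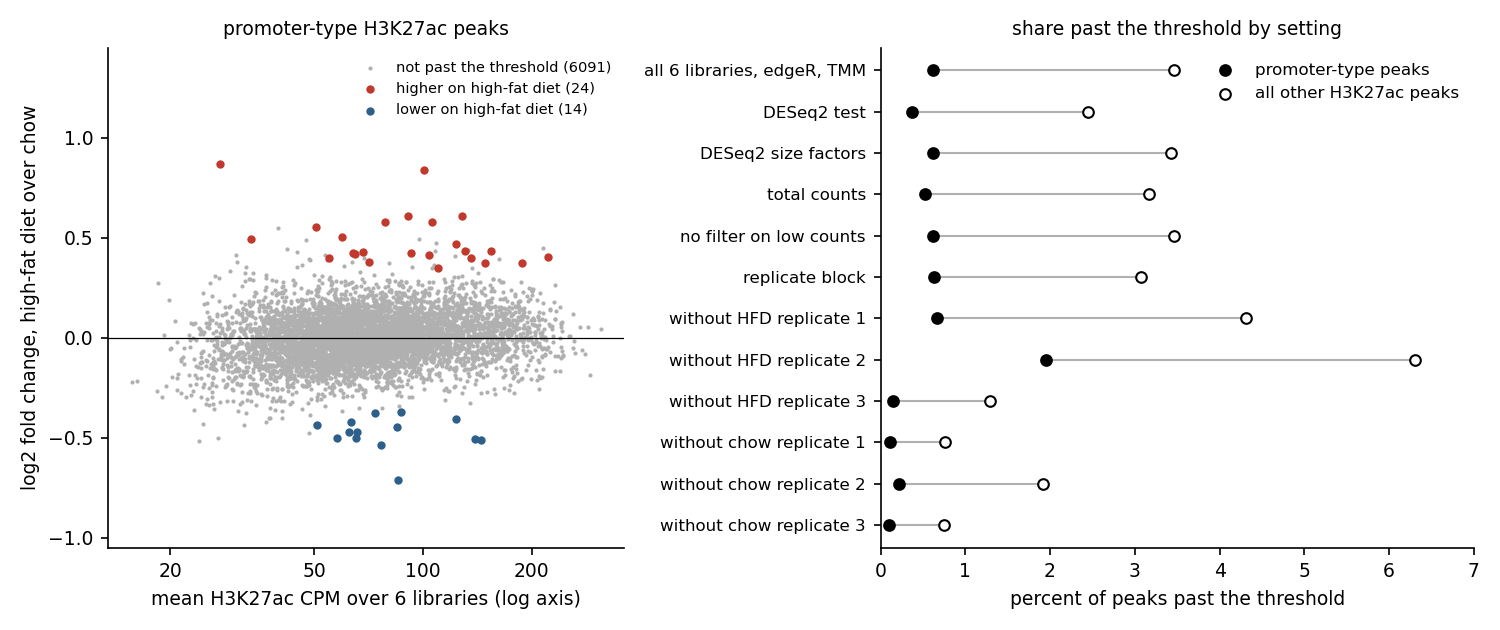
Left, log2 fold change of H3K27ac (high-fat diet over chow) against the mean CPM of the 6 libraries (log axis) for each promoter-type peak, with the 24 higher and 14 lower ones in colour. Right, percent of peaks past the threshold under each test, scaling or left-out library. Filled points are the promoter-type peaks and open points all other H3K27ac peaks, which lie to the right in each of the 12 settings.

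At the median, the regions that changed were wider than promoter-type peaks as a whole and had fewer H3K4me3 tags. Of the 24 higher regions 23 had no overlap between the diets, as had the 14 lower ones, against 15.3% of all promoter-type peaks and 19.3% of all union peaks. These regions were chosen by the p-value of the same libraries, so this lack of overlap adds no support. The 24 higher regions had a median width of 5148 bp and a median of 934 H3K4me3 tags, and the 14 lower ones 4987 bp and 745 tags, against 3069 bp and 1597 tags over all promoter-type peaks. Of the 1532 regions at the widest H3K4me3 peaks 14 passed (0.914%), and of the 1533 at the narrowest 10 (0.652%). These sets had medians of 2369 and 984 tags and of 414 and 178 H3K27ac counts per region. The part of width and counts in the calls was not tested. H3K4me3 covered at least 50% of the width at 23 of the 38 (60.5%), against 79.8% of all. Peaks had been called once per diet on pooled replicates, and 12 of the 24 higher regions were in the high-fat-diet list alone while 11 of the 14 lower ones were in the chow list alone. Of all promoter-type peaks, 3010 were in both lists, 2116 in the chow list alone and 1003 in the high-fat-diet list alone. The lists come from the same reads as the counts, so this is no separate evidence.

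The largest increase was at chr3:7612271-7613965, a narrow region almost wholly under an H3K4me3 peak of 936 tags. H3K27ac stood there at 35.4, 38.1 and 33.5 CPM on the high-fat diet, against 20.9, 15.0 and 21.1 CPM on chow. All 3 high-fat-diet libraries lay above all 3 chow libraries (log2 fold change 0.87, SE 0.15, adjusted p = 0.00279, edgeR). The H3K4me1 peak at this place did not pass (log2 fold change −0.36, SE 0.12, adjusted p = 0.102).

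At chr1:94727530-94733817, a wide region of 6288 bp of which H3K4me3 covered 38.3%, H3K27ac was 124.9, 125.7 and 137.2 CPM on the high-fat diet, against 69.7, 63.4 and 81.2 CPM on chow. The groups were well apart, and the adjusted p of 4.21e-05 was the lowest of the 20 regions named here (log2 fold change 0.84, SE 0.095, edgeR). At chr17:34322414-34326793 the high-fat-diet libraries held 195.8, 132.6 and 139.7 CPM and the chow libraries 88.8, 102.3 and 109.1 CPM. Replicate 1 was the highest of the high-fat-diet libraries there, and the others still lay above chow (log2 fold change 0.61, SE 0.12, adjusted p = 0.00683, edgeR). Without chow replicate 1 this region did not pass (log2 fold change 0.53, adjusted p = 0.104, edgeR).

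The other 7 of the 10 largest increases with no overlap between the diets were at chr7:133843387-133850039, chr11:72113840-72117197, chr9:45075023-45081162, chr11:3881899-3886085, chr4:15940406-15941958, chr17:36155612-36163880 and chr8:73130508-73136531. Their log2 fold changes ran from 0.43 to 0.61. The region at chr11:58029007-58032117 also passed, at a log2 fold change of 0.55 (adjusted p = 0.0465, edgeR), but its diets overlapped, with 74.3, 44.5 and 62.9 CPM on the high-fat diet, against 37.7, 47.3 and 37.4 CPM on chow. At the first of these, high-fat-diet replicate 1 had 160.8 CPM while replicates 2 and 3 had 84.7 and 88.8 CPM, against 75.02, 75.5 and 60.8 CPM on chow. High-fat-diet replicate 1 was the library farthest from chow in 16 of the 24 higher regions and in 10 of the 14 lower ones. Without it, chr7:133843387-133850039, chr17:36155612-36163880 and chr8:73130508-73136531 no longer passed, at log2 fold changes of 0.32, 0.29 and 0.31. The other 7 of the 10 increases passed without it at 0.44 to 0.88, the lowest being 0.44 at chr11:72113840-72117197 and 0.45 at chr17:34322414-34326793.

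The largest decrease was at chr17:14335677-14341859, where H3K27ac was 62.5, 68.6 and 63.2 CPM on the high-fat diet, against 95.5, 103.8 and 119.1 CPM on chow. The 3 high-fat-diet libraries agreed closely and lay below every chow library (log2 fold change −0.71, SE 0.098, adjusted p = 0.000509, edgeR). At chr12:29582545-29587023 there were 53.6, 61.0 and 71.4 CPM on the high-fat diet, against 109.5, 79.9 and 82.4 CPM on chow (log2 fold change −0.53, SE 0.12, adjusted p = 0.0181, edgeR). At chr7:31143903-31150185, beneath an H3K4me3 peak of 2331 tags, there were 97.9, 129.9 and 126.9 CPM on the high-fat diet, against 159.7, 179.3 and 175.9 CPM on chow (log2 fold change −0.51, SE 0.094, adjusted p = 0.00549, edgeR). The groups did not overlap at either place. Without chow replicate 1, chr12:29582545-29587023 did not pass (log2 fold change −0.37, adjusted p = 0.195, edgeR), and without chow replicate 3, chr7:31143903-31150185 did not (log2 fold change −0.49, adjusted p = 0.0501, edgeR).

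The remaining 7 decreases were at chr2:167387164-167394634, chr16:45843239-45845623, chr9:74694527-74697758, chr3:121803546-121808742, chr4:106133614-106138390, chr8:10900708-10905983 and chr5:53438067-53441704, with log2 fold changes between −0.51 and −0.44. Without high-fat-diet replicate 1 the 10 decreases passed at −0.69 to −0.39. By DESeq2 on all libraries chr7:133843387-133850039, chr4:15940406-15941958, chr17:36155612-36163880 and chr5:53438067-53441704 did not pass (adjusted p = 0.108 to 0.473). Of the 20 regions named for their change, 3 passed under each test, scaling and left-out library, namely chr3:7612271-7613965, chr1:94727530-94733817 and chr17:14335677-14341859. The authors' deposited table lists 20 promoter-type peaks as higher and 17 as lower under high-fat feeding at an adjusted p under 0.05, against a background of 1.77% of all union peaks. Of these 37 in the authors' deposited table, 30 were among the 38 found here, with the same direction.

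**Figure D3:**
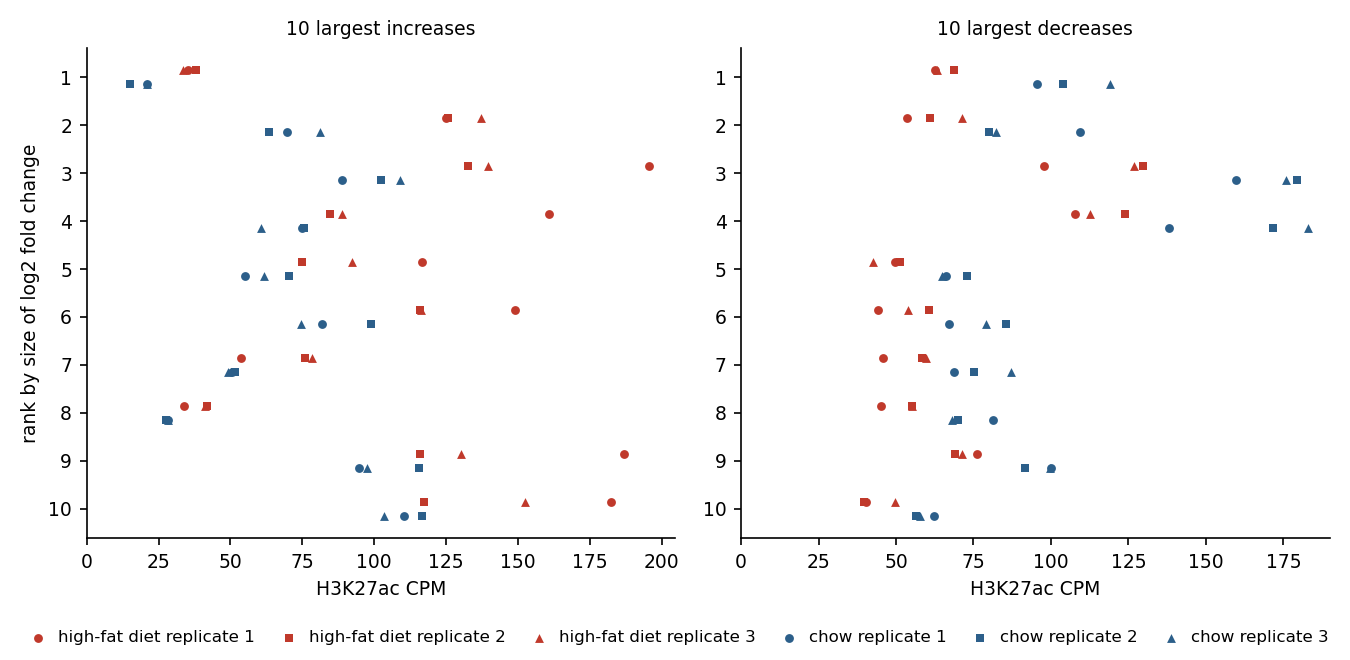
H3K27ac CPM (horizontal axis) in each library at the 10 promoter-type peaks with the largest increases (left) and the 10 with the largest decreases (right) among those whose diets did not overlap, ranked by the size of the log2 fold change. Red points are high-fat-diet libraries and blue points chow libraries, with 1 symbol per replicate. High-fat-diet replicate 1, the circle, lies far to the right of the other 2 in ranks 3, 4, 6 and 9 of the increases.

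The densest regions and those with the most H3K4me3 did not pass in the diet contrast. The highest H3K27ac per kilobase was at chr5:22938165-22942103, 42.9 CPM per kilobase, with 175.6, 145.2 and 180.9 CPM on the high-fat diet, against 178.7, 165.0 and 169.3 CPM on chow. The groups overlapped (log2 fold change −0.04, SE 0.087, adjusted p = 0.877, edgeR). The region with the most H3K4me3 tags, 9957, was chr17:34253216-34262185. It held 332.0, 296.0 and 316.8 CPM on the high-fat diet, against 289.4, 326.7 and 300.2 CPM on chow (log2 fold change 0.04, SE 0.075, adjusted p = 0.848, edgeR). The other 3 densest regions (chr7:119165964-119168132, chr11:23564970-23566976 and chr13:37916415-37920301) had log2 fold changes between −0.13 and 0.02. The other 3 with the most H3K4me3 tags had values between 0.06 and 0.15. Of these, chr8:129111418-129117510 and chr8:129117575-129122923 lie under 1 shared H3K4me3 peak, and the other one is chr12:81209922-81218358.

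The presence of H3K4me1 divided the promoter-type peaks nearly evenly. An H3K4me1 union peak overlapped 3079 of them, and 32 of these (1.04%) passed in the diet contrast of H3K27ac, 21 higher and 11 lower. Of the 3050 without one, 6 passed (0.197%). The first kind was wider, with a median of 4068 bp and 333 counts per region, against 2471 bp and 227.8 counts in the second, and the difference in the share that passed was not tested. The share of promoter-type H3K27ac counts that fell in regions with H3K4me1 was 60.6%, 61.0% and 60.9% on the high-fat diet, against 60.0%, 60.2% and 60.6% on chow. Every high-fat-diet library lay above every chow library, though the closest pair, high-fat-diet replicate 1 at 60.565% and chow replicate 3 at 60.560%, was nearly equal. The difference of 0.528 percentage points had an exact two-sided permutation p = 0.1, the lowest that 3 against 3 libraries allow, and p = 0.4 after adjustment over the 4 shares tested.

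The other shares did not separate the diets. Promoter-type peaks took 49.5%, 47.8% and 48.4% of H3K27ac counts on the high-fat diet, against 48.4%, 48.7% and 48.3% on chow. The means were 48.6% ± 0.904 and 48.5% ± 0.164 (SD, n = 3 each, exact permutation p = 0.9, adjusted p = 0.9). The difference was −0.411 without high-fat-diet replicate 1, in place of 0.0772 percentage points with it (exact permutation p = 0.2). H3K4me1 peaks at promoter-type peaks took 21.7%, 20.6% and 20.9% of H3K4me1 counts on the high-fat diet, against 21.4%, 21.2% and 21.0% on chow (exact permutation p = 0.7, adjusted p = 0.9). Regions at wide H3K4me3 peaks took 35.9%, 36.6% and 36.5% of promoter-type H3K27ac on the high-fat diet, against 35.7%, 36.5% and 36.5% on chow (exact permutation p = 0.5, adjusted p = 0.9). Without high-fat-diet replicate 2 the H3K4me1 difference turned to 0.107, in place of −0.126, and the difference at wide H3K4me3 peaks to −0.012, in place of 0.106 percentage points. The difference at wide H3K4me3 peaks was −0.145 without chow replicate 1.

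**Figure D4:**
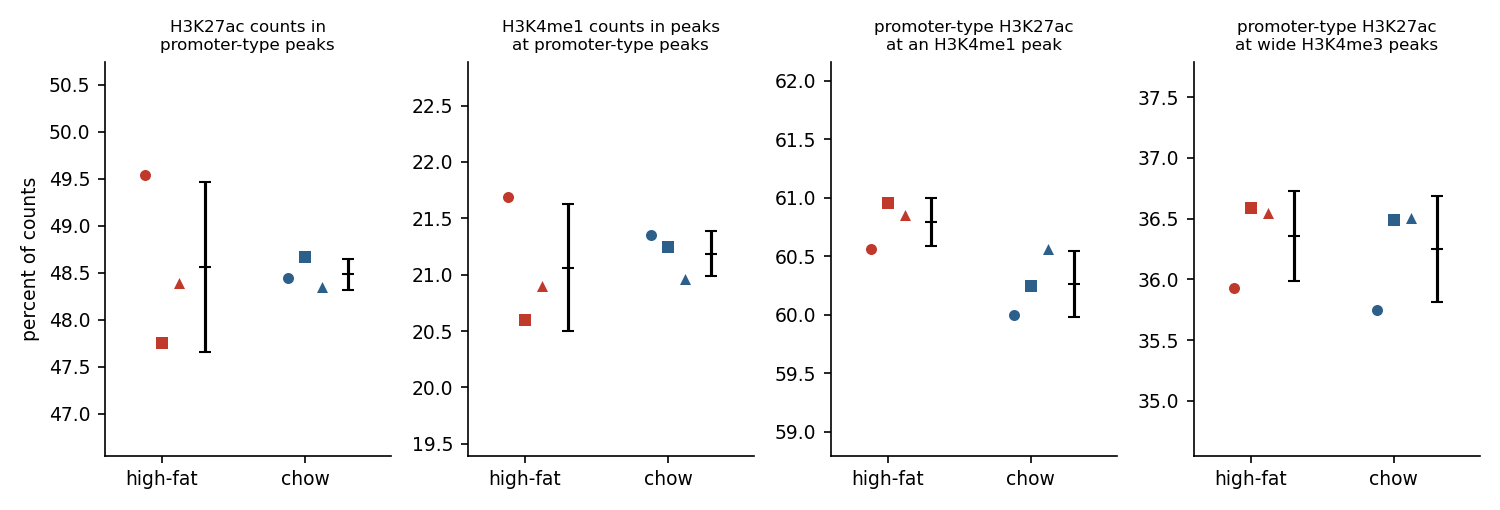
Percent of counts per library (vertical axis, each panel over a narrow range that does not start at 0) for the 4 shares, with high-fat-diet libraries left and chow libraries right. Bars give mean and SD of 3 libraries. The diets are apart in the third panel, by 0.528 percentage points between means, and overlap in the other 3.

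H3K4me1 itself changed at few of these places. Of 3281 H3K4me1 union peaks that overlapped a promoter-type peak, high-fat feeding raised H3K4me1 at 17 and lowered it at 21 (together 38, 1.16%), against a background of 1.56% of all 16834 H3K4me1 peaks, 0.683% higher and 0.879% lower (edgeR, as above). The authors' deposited table lists 29 of the 3281 as higher and 36 as lower, against a background of 2.45%. Without high-fat-diet replicate 1 the count here was 339 (91 higher, 248 lower), and without high-fat-diet replicate 2 it was 10. Without high-fat-diet replicate 3 it was 42, and without chow replicates 1, 2 and 3 it was 5, 4 and 8. Over the 3281 peaks, H3K4me1 high-fat-diet replicate 1 correlated at up to 0.9719 with its own diet and up to 0.9725 with chow. Of the 6 peaks with the largest changes in H3K4me1, the lowest adjusted p was at chr14:66284885-66296029, with 103.0, 132.6 and 99.6 CPM on the high-fat diet, against 165.0, 161.0 and 167.9 CPM on chow. Its groups were far apart (log2 fold change −0.56, SE 0.092, adjusted p = 0.00174, edgeR), whereas the overlapping region did not pass for H3K27ac (adjusted p = 0.974, log2 fold change 0.01).

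The other 5 of these peaks had larger fold changes and higher p-values. H3K4me1 was higher on the high-fat diet at chr3:21971934-21974228, chr5:66474393-66475840 and chr18:36823360-36826374 (log2 fold changes of 0.65, 0.65 and 0.61). It was lower at chr1:156944728-156947285 and chr17:25150131-25151783 (−0.64 and −0.58). At chr3:21971934-21974228 the values were 26.7, 32.6 and 23.4 CPM on the high-fat diet, against 18.1, 16.5 and 18.2 CPM on chow, and the groups did not overlap (SE 0.14, adjusted p = 0.0157, edgeR). It did not pass without high-fat-diet replicate 2 (log2 fold change 0.50) or without any 1 chow library (0.60 to 0.67). The H3K4me1 peak at chr5:66474393-66475840 did not pass without any 1 chow library, nor that at chr18:36823360-36826374 without high-fat-diet replicate 3, chow replicate 2 or chow replicate 3. The peak at chr1:156944728-156947285 did not pass without high-fat-diet replicate 2 or any 1 chow library. That at chr17:25150131-25151783 did not pass without high-fat-diet replicate 2 or 3 or any 1 chow library, nor by DESeq2 on all libraries (adjusted p = 0.0542). H3K27ac at the 5 overlapping regions did not pass, with log2 fold changes between −0.16 and 0.25.

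Both marks passed together at 4 regions, in the same direction at 3 and in opposite directions at 1. At chr1:94727530-94733817, described above for H3K27ac, H3K4me1 was 132.7, 125.6 and 141.5 CPM on the high-fat diet, against 97.1, 89.5 and 101.9 CPM on chow (log2 fold change 0.47, SE 0.087, adjusted p = 0.00567, edgeR). Both marks were thus higher there in all 3 high-fat-diet libraries than in any chow library. The H3K4me1 peak did not pass without chow replicate 2 (log2 fold change 0.42, adjusted p = 0.0764, edgeR).

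At chr9:45075023-45081162, H3K27ac was 149.0, 115.9 and 116.4 CPM on the high-fat diet, against 82.0, 98.99 and 74.6 CPM on chow. H3K4me1 was 96.4, 96.8 and 96.0 CPM on the high-fat diet, against 68.2, 78.2 and 62.1 CPM on chow (adjusted p = 0.00636 for H3K27ac and adjusted p = 0.0110 for H3K4me1, edgeR). At chr1:137714075-137720299 both marks fell, H3K27ac to 71.8, 75.3 and 80.1 CPM on the high-fat diet, against 92.6, 97.5 and 104.6 CPM on chow. H3K4me1 there was 80.8, 84.1 and 101.4 CPM on the high-fat diet, against 123.3, 130.6 and 128.0 CPM on chow. The groups were apart in both marks at both places (log2 fold changes at chr1:137714075-137720299 of −0.37 for H3K27ac, adjusted p = 0.0304, and −0.52 for H3K4me1, adjusted p = 0.00367, edgeR). Without chow replicate 1 or 3 neither mark passed at chr9:45075023-45081162 (adjusted p = 0.0734 to adjusted p = 0.0991, edgeR). At chr1:137714075-137720299 H3K27ac did not pass without high-fat-diet replicate 3 or any 1 chow library (log2 fold changes −0.42 to −0.32), nor by DESeq2 on all libraries (adjusted p = 0.0714).

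The region where the marks moved apart was chr9:61218192-61223344, covered to 91.2% by an H3K4me3 peak of 2766 tags. H3K27ac was 202.2, 152.1 and 176.8 CPM on the high-fat diet, against 122.4, 142.2 and 126.9 CPM on chow (log2 fold change 0.43, SE 0.095, adjusted p = 0.0179, edgeR). H3K4me1 was 94.1, 95.3 and 117.1 CPM on the high-fat diet, against 147.1, 137.9 and 133.4 CPM on chow (log2 fold change −0.45, SE 0.091, adjusted p = 0.00864, edgeR). The diets were apart in both marks. H3K27ac did not pass without high-fat-diet replicate 3, chow replicate 1 or chow replicate 3 (log2 fold changes 0.39 to 0.43), nor H3K4me1 without high-fat-diet replicate 2, chow replicate 1 or chow replicate 2 (−0.46 to −0.40). Without high-fat-diet replicate 1 H3K27ac passed at a log2 fold change of 0.35 (adjusted p = 0.0100, edgeR). This region and chr1:137714075-137720299 were named after their values were seen.

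Across the 3079 promoter-type peaks with an H3K4me1 peak, the log2 fold changes of the marks had a Pearson correlation of 0.021, and across the 4129 other H3K27ac peaks with one it was 0.19. These are descriptions over regions measured in the same libraries, and the regions are not replicates. Among the 32 promoter-type peaks that passed for H3K27ac and had an H3K4me1 peak, the H3K4me1 log2 fold change had the same sign at 14 of 21 higher regions and at 10 of 11 lower ones. Its median was 0.07 at the higher and −0.18 at the lower regions.

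The deposited promoter table gives H3K27ac counts by gene symbol, for promoter windows whose width is not stated. It was made from the same 6 libraries and cannot be tied to single peaks here, so it describes promoters by name beside the peaks. Under high-fat feeding 39 of 20891 tested promoters were higher (0.187%) and 10 lower (0.0479%), together 0.235% (edgeR, as above). The count was 95 without high-fat-diet replicate 1, 736 without replicate 2 and 8 without replicate 3. Without chow replicates 1 and 3 it was 1 and 7, and without chow replicate 2 no promoter passed by edgeR, with 2431 of 21174 at an unadjusted p under 0.05. DESeq2 on all libraries called 37, of which 35 were among the 49. High-fat-diet replicate 1 was the library farthest from chow in 31 of the 39 higher promoters and in 9 of the 10 lower ones. None of the 23 promoters named in the text or the plot of promoters and mRNA passed without chow replicate 2, and 17 of them did not pass without high-fat-diet replicate 3. Without high-fat-diet replicate 1 all but that of Cyp2a4 passed, at log2 fold changes of 0.44 to 0.91 for the higher and −0.93 to −0.42 for the lower ones. By DESeq2 on all libraries the promoters of Sfpi1, Cd68, H2-Aa, Il10ra, Oas3, Gpc1, Ppp1r9a and Cadm4 did not pass (adjusted p = 0.0614 to 0.405), and that of Cyp2a4 was given no adjusted p. Each kept its direction in these fits. These genes were picked with their values in view.

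Among the higher promoters were those of Sfpi1, Cd68, H2-Aa, Cd52 and Il10ra. Sfpi1 encodes PU.1, the transcription factor of macrophages and B cells, and its promoter held 86.1, 46.2 and 52.4 CPM on the high-fat diet, against 34.4, 40.8 and 27.7 CPM on chow (log2 fold change 0.82, SE 0.18, adjusted p = 0.0409, edgeR). Replicate 1 was far above the other 2 high-fat-diet libraries, and the groups did not overlap. Without it the log2 fold change was 0.57 (adjusted p = 0.0189, edgeR). Its mRNA rose too, with 4.24, 6.67 and 5.46 CPM on the high-fat diet, against 2.53, 2.25 and 3.66 CPM on chow (log2 fold change 0.97, adjusted p = 0.0136, edgeR). Without chow replicate 2 the log2 fold changes were 0.94 at the promoter (adjusted p = 0.0917) and 0.85 in mRNA (adjusted p = 0.0593, edgeR). Leaving out chow replicate 1 or 3 instead gave adjusted p-values of 0.292 and 0.318 at the promoter (edgeR).

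Cd68, a macrophage glycoprotein of lysosomes, had 57.2, 63.8 and 62.7 CPM at its promoter on the high-fat diet, against 40.0, 48.2 and 43.5 CPM on chow (log2 fold change 0.51, SE 0.11, adjusted p = 0.0427, edgeR). Its 3 high-fat-diet values agreed closely. Its mRNA was higher by 0.86 on the log2 scale (adjusted p = 0.0206, edgeR). Without chow replicate 2 neither passed (adjusted p = 0.0917 at the promoter and adjusted p = 0.0766 in mRNA, edgeR). Leaving out chow replicate 1 or 3 instead gave adjusted p-values of 0.292 and 0.289 at the promoter (edgeR). The promoters of H2-Aa, an MHC class II chain, Cd52, a surface protein of leukocytes, and Il10ra, the receptor chain for interleukin 10, rose by 1.11, 0.88 and 0.54 on the log2 scale, while their mRNA did not pass (adjusted p = 0.128, adjusted p = 0.0535 and adjusted p = 0.508, edgeR). High-fat-diet replicate 1 led all 3 of these promoters, and without it they stood at 0.76, 0.62 and 0.46.

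The promoters of Oas3 and Zbp1 rose, as did their mRNA. Zbp1 is a sensor of nucleic acids that interferon induces. Oas3, whose upstream bases are printed above, had 74.7, 31.9 and 46.5 CPM at its promoter on the high-fat diet, against 19.9, 24.9 and 19.3 CPM on chow (log2 fold change 1.22, SE 0.21, adjusted p = 0.0123, edgeR). The spread among the high-fat-diet libraries was wide, and all lay above chow. Without high-fat-diet replicate 1 the log2 fold change was 0.91 (adjusted p = 0.000393, edgeR). Zbp1 had 133.9, 103.1 and 109.2 CPM on the high-fat diet, against 74.1, 79.1 and 80.7 CPM on chow (log2 fold change 0.55, SE 0.099, adjusted p = 0.0123, edgeR). The mRNA of these genes was higher by 1.85 and 2.29 on the log2 scale (adjusted p = 0.000674 and adjusted p = 0.000433, edgeR). Without chow replicate 2 the promoters' adjusted p-values were 0.0678 and 0.0917 (edgeR). They were 0.213 and 0.212 without chow replicate 1, and 0.159 and 0.141 without chow replicate 3 (edgeR).

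Also higher were the promoters of Pparg, Ccnd1, Lgals1, Anxa2, Gpc1 and Osbpl3, all with mRNA that rose. Pparg encodes the nuclear receptor that drives fat storage in adipocytes, and its promoter had 81.6, 81.0 and 66.4 CPM on the high-fat diet, against 50.7, 53.3 and 45.6 CPM on chow (log2 fold change 0.62, SE 0.10, adjusted p = 0.0122, edgeR). The groups did not overlap, and its mRNA was higher by 0.81 on the log2 scale (adjusted p = 0.00125, edgeR). Ccnd1, which encodes the cell cycle protein cyclin D1, had 114.0, 104.7 and 101.7 CPM at its promoter on the high-fat diet, against 67.3, 77.4 and 68.6 CPM on chow (log2 fold change 0.59, SE 0.091, adjusted p = 0.00541, edgeR). Its mRNA was 68.0, 75.2 and 59.9 CPM on the high-fat diet, against 10.95, 11.5 and 12.1 CPM on chow (log2 fold change 2.56, adjusted p = 1.68e-05, edgeR). Lgals1 (galectin 1) and Anxa2 (annexin A2) rose by 0.63 and 0.62 at the promoter and by 2.92 and 1.68 in mRNA on the log2 scale. Gpc1 (glypican 1, a cell surface proteoglycan) and Osbpl3 (an oxysterol-binding protein) rose by 0.51 and 0.61 at the promoter and by 1.66 and 2.30 in mRNA. Without chow replicate 2 the promoters of Pparg, Ccnd1 and Lgals1 had adjusted p = 0.0526, adjusted p = 0.0502 and adjusted p = 0.0526 (edgeR). Leaving out chow replicate 1 instead gave adjusted p-values of 0.157, 0.142 and 0.0762 (edgeR). Leaving out chow replicate 3 gave 0.159 for Pparg and 0.0854 for Ccnd1, while Lgals1 passed (edgeR).

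The promoter of Cyp2a4, a cytochrome P450 that hydroxylates steroids, had the largest fold change of those that passed, 2.35 on the log2 scale (SE 0.49, adjusted p = 0.0376, edgeR). Its levels were low, with 8.96, 3.98 and 3.64 CPM on the high-fat diet, against 0.935, 1.29 and 0.821 CPM on chow, and near-identical Cyp2a genes make its count uncertain. Its mRNA, counted with the same uncertainty, was higher by 2.03 (adjusted p = 0.000310, edgeR). Without high-fat-diet replicate 1 the promoter did not pass (log2 fold change 1.95, adjusted p = 0.0770, edgeR).

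Of the 10 promoters that fell, those of Dact2 and Ppp1r9a had mRNA that also fell. The Dact2 promoter had 32.9, 48.1 and 40.6 CPM on the high-fat diet, against 64.5, 72.7 and 88.3 CPM on chow (log2 fold change −0.86, SE 0.13, adjusted p = 0.00530, edgeR), and its mRNA was lower by 2.32 on the log2 scale (adjusted p = 3.79e-05, edgeR). Ppp1r9a, which encodes the actin-binding protein neurabin, fell by 0.54 at the promoter and by 0.48 in mRNA on the log2 scale. Gulp1 had 14.9, 17.8 and 20.4 CPM at its promoter on the high-fat diet, against 36.2, 42.6 and 32.4 CPM on chow (log2 fold change −1.02, SE 0.17, adjusted p = 0.0122, edgeR), and its mRNA did not pass the filter on low counts. Every high-fat-diet library lay below every chow library for both Dact2 and Gulp1. Without chow replicate 2 their promoters had adjusted p = 0.0502 and adjusted p = 0.0885 (edgeR). Dact2 also did not pass without chow replicate 3 (adjusted p = 0.0854), nor Gulp1 without chow replicate 1 (adjusted p = 0.157, edgeR).

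Gpd1, which makes the glycerol 3-phosphate used for triglycerides, had 91.6, 131.5 and 110.9 CPM at its promoter on the high-fat diet, against 169.9, 147.9 and 164.5 CPM on chow (log2 fold change −0.52, SE 0.11, adjusted p = 0.0408, edgeR). The groups did not overlap. Without chow replicate 2 it did not pass (adjusted p = 0.104, edgeR), and its mRNA missed the threshold in the full fit at a log2 fold change of −0.29 (adjusted p = 0.0555, edgeR). Leaving out chow replicate 1 or 3 instead gave adjusted p-values of 0.277 and 0.296 at the promoter (edgeR).

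Of the 22 higher promoters whose gene was tested in mRNA, 11 had mRNA that rose and 11 had mRNA that did not pass. Of the 9 lower ones, 2 had mRNA that fell and 7 had mRNA that did not pass. In all, 35.6% of 12909 genes passed in mRNA, 18% higher and 17.6% lower. The mRNA and ChIP libraries carry replicate numbers that were not used to pair them.

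**Figure D5:**
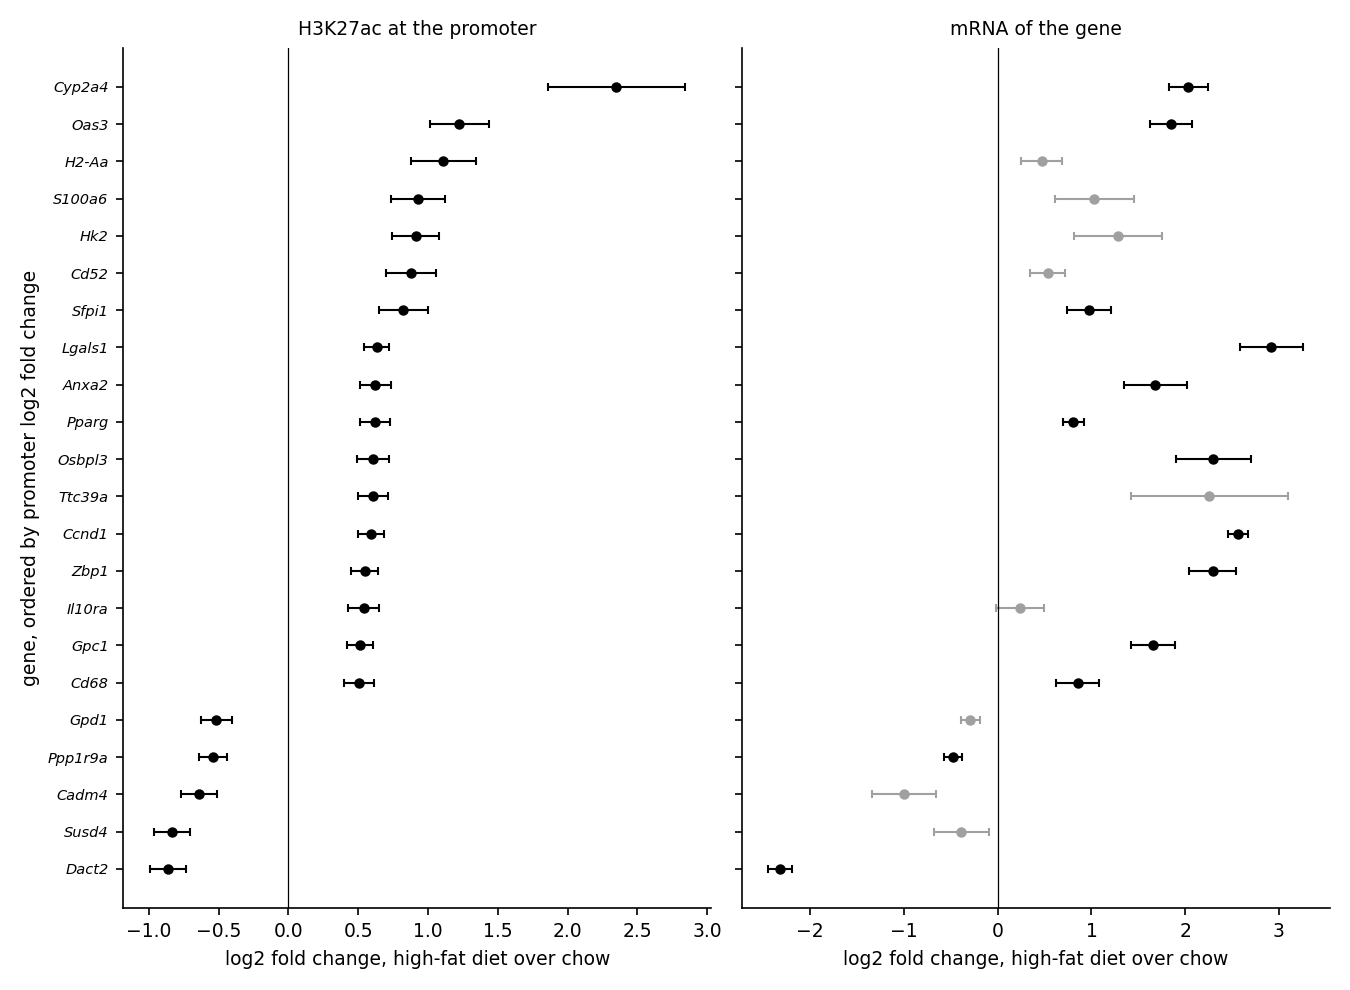
Log2 fold change (high-fat diet over chow, bars are SE of the fit, n = 3 per diet) of H3K27ac at the promoter, left, and of mRNA, right, for 22 of the 31 genes whose promoter passed and whose mRNA was tested, picked with their values in view. The 9 not drawn all had mRNA that did not pass. Grey mRNA points did not pass. Of the 17 promoters shown that rose, 11 have black points in mRNA, and of the 5 that fell, 2 do.

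A set of 11 lists of liver genes held 185 genes, of which 183 had a tested promoter. The lists were chosen with earlier results of these data known. In mRNA, 18% of all tested genes rose. Among 19 interferon-induced genes, 18 had mRNA that rose, with a median log2 fold change of 1.52, against 0.024 over all genes. At their promoters the median was 0.30, against −0.0030 over all promoters. A value above 0 was found at 18 of the 19, against 49.4% of all promoters. These promoter values are not given without high-fat-diet replicate 1. None of the 19 promoters passed by edgeR and 1 passed by DESeq2, while 11 of the 19 had an unadjusted p under 0.05, against 14.0% of all promoters.

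The metabolic lists showed smaller promoter values. Their mRNA counts stand against 18% of all tested genes that rose and 17.6% that fell. Among 16 genes of fatty acid and triglyceride synthesis, 8 rose and 4 fell in mRNA, with a promoter median of −0.04. Among 17 of cholesterol synthesis and uptake, 8 rose and 1 fell, with a promoter median of −0.23. Among 20 PPARalpha targets and genes of fatty acid oxidation, 2 rose and 11 fell, with a promoter median of −0.18. Of 16 genes for making urea and breaking down amino acids, 3 rose and 10 fell, with a promoter median of −0.15. Among 16 cytosolic ribosomal proteins, 8 fell, with a promoter median of −0.12. For glucose output and glycolysis 4 of 12 rose and 5 fell, for insulin signaling 4 and 3 of 15, for the acute phase 8 and 2 of 19, for the circadian clock 10 and 3 of 18 and for hepatocyte transcription factors 7 and 1 of 15, with promoter medians between −0.19 and −0.07.

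Defining genes of liver were abundant, with a summed level of the 9 hepatocyte markers listed of 103860 to 127820 CPM in mRNA on the high-fat diet, against 109069 to 114496 CPM on chow. At promoters, the summed H3K27ac of the 9 listed markers of Kupffer cells and macrophages was 174 to 259 CPM on the high-fat diet, against 140 to 172 CPM on chow, with 1 of 8 tested promoters past the threshold (Cd68) and none at 0. The promoters of 9 markers of T, B and NK cells summed to 172 to 245 CPM on the high-fat diet, against 142 to 159 CPM on chow, and those of the hepatocyte markers to 415 to 575 CPM, against 567 to 600 CPM. High-fat-diet replicate 1 was the highest in the macrophage sum and in the T, B and NK cell sum, and the lowest in the hepatocyte sum. High-fat-diet replicates 2 and 3 had 174 and 202 CPM in the macrophage sum. They had 172 and 187 CPM in the T, B and NK cell sum, and 575 and 522 CPM in the hepatocyte sum. Promoters of neutrophil markers summed to 119 to 135 CPM on the high-fat diet, against 102 to 124 CPM on chow. Those of stellate cell markers summed to 156 to 170 CPM, against 155 to 165 CPM. Those of endothelial cell markers summed to 350 to 378 CPM, against 370 to 384 CPM. Those of cholangiocyte markers summed to 266 to 354 CPM, against 325 to 362 CPM, and the diets overlapped in each of these lists. The part of these cell types in the higher promoters was not tested. In mRNA the macrophage sum was 276 to 500 CPM on the high-fat diet, against 224 to 410 CPM on chow, so the diets overlapped, and the sum of T, B and NK cell markers was 4.204 to 4.94 CPM, against 2.57 to 4.72 CPM. Genes of pancreas acinar cells summed to 10.2 to 187 CPM in mRNA on the high-fat diet, against 323 to 1948 CPM on chow, and their promoters to 165 to 198 CPM, against 154 to 168 CPM. In mRNA 9 of the 10 acinar genes tested fell.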

How the data were processed

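The promoter-type peaks were chosen by a fixed rule on positions, and they, the gene lists and the tests were chosen with earlier results of these data known. The deposited H3K27ac, H3K4me1 and promoter tables and the mRNA files hold raw read counts per feature and library, and the submitters' processing notes name Bowtie 0.12.7, TopHat 1.4.0, HTSeq, bedtools and the mm9 build, with no roles given. Peaks were called by MACS 1.4.0rc2 on replicates pooled within a diet against that diet's IgG, with p-values up to 1e-06 allowed and an FDR cut at 10 percent, per the file headers. The deposited lists give each peak's score (a log10-scaled p), fold enrichment (a ratio), tags and FDR in percent, per the file headers. The authors' deposited DESeq2 tables give mean normalized signal, log2 fold change and p-values. The labels give no batch, so one that followed the diet cannot be told apart from it.

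From the counts, CPM and fold changes (high-fat diet over chow, n = 3 each) were computed with edgeR 4.0.16 (TMM scaling, filterByExpr, quasi-likelihood F test, no covariate, Benjamini-Hochberg adjustment over each whole table, threshold 0.05), after a check on simulated data. Totals per library were 1967613 to 4964403 counts in promoters and 19016275 to 45741794 in mRNA. The correlation of deviations gave no clear sign that replicate numbers pair the libraries of any table, but with 3 pairs it cannot exclude pairing. Shares were compared by exact two-sided permutation. Regions were named by rule: the 10 largest changes each way among those past the threshold with diets apart, the 4 densest, the 4 with most H3K4me3 tags and the 3 largest H3K4me1 changes each way. Alternatives were DESeq2 1.42.0, other scalings, no filter, stricter member rules, each library left out and a replicate block, and those for the promoter table, mRNA and the regions changed in both marks were added after seeing the data. The result for 1 promoter is not reported here.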

Additional observations from a re-analysis of the deposited data

How the results depend on the processing

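With DESeq2, 23 promoter-type peaks passed for H3K27ac (13 higher), against 38 (24 higher) with edgeR, and 25 H3K4me1 peaks at them (13 lower), against 38 (21 lower). Where H3K4me3 had to cover at least 50% of the peak, 23 passed (14 higher, 9 lower), with an H3K4me3 enrichment of at least 20-fold 22 (13 higher, 9 lower), and under 5000 bp 18 (11 higher, 7 lower). In those narrower sets of peaks fewer regions were counted, and the share of H3K27ac counts changed by −0.168 (50% covered) and −0.200 (under 5000 bp) percentage points, in place of 0.0772 (exact permutation p = 0.7 for both). Total counts moved the median log2 fold change of promoter-type peaks to −0.012. Leaving out each library in turn gave 6 to 120 H3K27ac regions (2 to 83 higher, 3 to 37 lower), 4 to 339 H3K4me1 peaks (1 to 91 higher, 3 to 248 lower) and 0 to 736 promoters (0 to 537 higher, 0 to 199 lower). It gave share differences of −0.411 to 0.481 for H3K27ac, −0.438 to 0.107 for H3K4me1, 0.393 to 0.675 for regions with H3K4me1 and −0.145 to 0.320 at wide H3K4me3 peaks. The cause of these changes was not tested. Over single regions and genes, 721 values kept their side of the threshold, 194 lost it, 19 gained it and none that passed changed sign. The 721 include regions and genes that did not pass in the full fit. They also include the fit without a filter, which tested the same H3K27ac peaks. They therefore do not measure how stable the calls were. At this depth the median standard error of a log2 fold change at promoter-type peaks was 0.098 (n = 3 per diet), and how the calls depend on depth was not tested.

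Replicate numbers were shared between diets without clear evidence of pairing: same-numbered libraries had correlations of 0.070, −0.091 and 0.084 in their deviations over promoter-type peaks, and 2 of 3 correlated best with their own number. The correlations were 0.051, −0.14 and −0.17 over H3K4me1 peaks at them, 0.091, −0.0046 and 0.043 over gene promoters and 0.081, −0.058 and 0.15 over mRNA. The own number was best for 2 of 3 over gene promoters and over mRNA, and for none over these H3K4me1 peaks. With 3 pairs this cannot exclude pairing. With the replicate block 39 H3K27ac regions passed, 31 of them among the 38, and 7 calls were lost, among them chr4:15940406-15941958, chr17:36155612-36163880 and chr5:53438067-53441704. With it passed 55 H3K4me1 peaks (34 lower) and 470 promoters (315 higher, 155 lower), and the share differences were 0.0772 (p = 0.75), −0.126 (p = 0.75), 0.528 (p = 0.25) and 0.106 percentage points (p = 0.25, exact sign-flip permutation). The lowest p that 3 pairs allow in this permutation is 0.25, so it could not pass the threshold. The mRNA of genes at promoter-type peaks was not run, since no mm9 annotation was used here.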
